A study of Mus musculus with 35 samples.

Results

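The genes described here encode the spliceosome and the RNA-binding proteins that steer it. They are the 89 protein-coding RefSeq genes, of 21883 on chromosomes 1 to 19, X and Y, whose symbols begin with Snrp, Snrnp, Lsm and a digit, Sf3a, Sf3b, Prpf, Srsf, Hnrnp or U2af. The symbol rule used no measured value, but the family was chosen with earlier results of these data known. The data are peaks of HA-tagged NELFA in the E14 line, mouse embryonic stem cells kept in serum with LIF and 2i. The tagged protein NELFA is a subunit of the negative elongation factor, NELF.

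The study asked how NELFA relates to the 2-cell-like state of embryonic stem cells. For chromatin immunoprecipitation, E14 cells with a doxycycline-inducible, Strep-HA-tagged NELFA transgene received 0.4 µg/ml doxycycline for 16 h. Of the 7 libraries, 4 were immunoprecipitated for HA, 3 with one antibody and 1 with another, and 3 were input. They cover 3 replicates, and the second antibody was used on replicate 3 alongside the first. All 7 came from induced cells, so HA signal independent of the transgene cannot be told apart. The peaks report an added, induced copy of NELFA, since the native protein carries no tag, and the number of cell clones is not stated in the labels used here. One deposited list of 59485 peaks represents these libraries, with a median fold enrichment of 2.09, a 95th percentile of 4.27 and no value per library. The fold is the authors' own linear ratio for each peak, and no value below has a replicate error. The study's 20 RNA-seq and 8 ATAC-seq samples were not used here, and a peak list holds no expression with which to check the cells' identity.

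Splicing removes introns from nascent transcripts. The U1 particle marks the 5′ splice site, U2AF and the U2 particle mark the 3′ side and the branch point, and the U4/U6.U5 tri-snRNP brings in the catalytic parts. SR proteins mostly favour and hnRNP proteins often oppose the use of an exon. NELF binds RNA polymerase II shortly after initiation and holds it in a paused state just downstream of the transcription start.

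NELFA peaks lay at a boundary of 48 of the 89 splicing genes. A gene counted as occupied when a peak summit fell within 1 kb of its annotated start or end. The share was 53.9%, where 18.8% of all protein-coding genes were occupied (4120 of 21883). In windows 5 to 7 kb outside the same genes, 6 of 89 splicing genes (6.74%) had a summit, beside 8.59% of all protein-coding genes. Without chromosomes 6 and 8 these shares were 3.85% and 6.16%. A 2 kb limit in place of 1 kb gave 57.3% of the splicing genes and 21.8% of all protein-coding genes. The strongest boundary peak of each occupied splicing gene had a median fold of 2.56, with a range of 1.86 to 11.1, and the median was 2.22 over the other 4072 occupied genes. A boundary fold of at least 5 was found at 5 splicing genes, 10.4% of those occupied, and at 138 other genes, 3.39% of those occupied. The remaining 41 members comprised 34 with no peak at all and 7 with a peak only in the interior. No test of the share was made, since the members were chosen with results known.

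**Figure D1:**
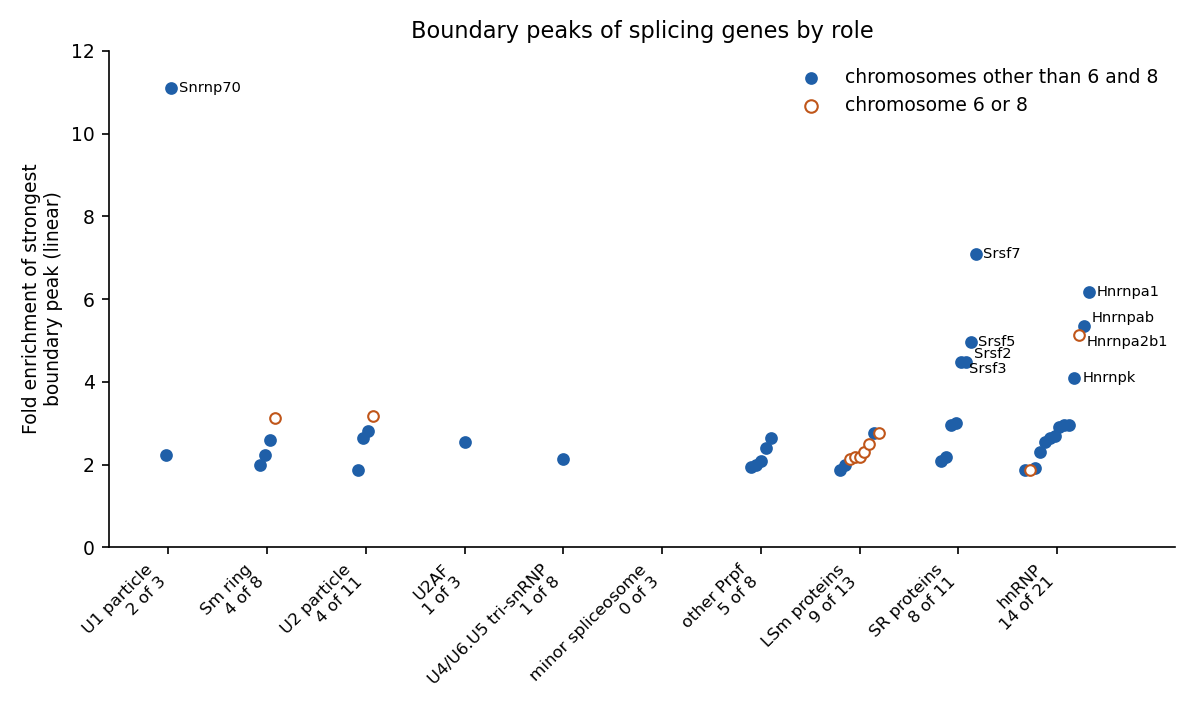
Strongest boundary peak of each occupied splicing gene (vertical axis, authors' linear fold enrichment) by role (horizontal axis, with the number occupied of the number in the group); open symbols are genes on chromosomes 6 and 8. Snrnp70 stands at 11.1, the other folds of 4 or more are in SR and hnRNP genes, and the minor spliceosome group has no point.

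The strongest peak belonged to the U1 particle. Snrnp70, which encodes the protein that binds the first stem-loop of U1 RNA (chromosome 7, 45376454 to 45395742, minus strand), had a single peak from 45395210 to 45396126 with a fold of 11.1, rank 1 among the 4120 occupied protein-coding genes. Its summit lay 119 bp upstream of the annotated start. Srsf7, an SR protein gene on chromosome 17 (80200080 to 80207369, minus strand), followed with a fold of 7.08, rank 36, and a summit 50 bp downstream of the start. Its summit lies 114 bp inside the Srsf7 boundary and also within 1 kb of a boundary of Gemin6, whose product takes part in the assembly of Sm rings. Hnrnpa1 (6.17), Hnrnpab (5.36) and Hnrnpa2b1 (5.13), all hnRNP genes, complete the members with a boundary fold of at least 5. Hnrnpa1 has near-identical processed copies elsewhere in the genome. How reads that map to several places were treated is not given in the sources used here, so its peak is uncertain to that extent.

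The promoters of the 6 strongest boundary peaks that overlap a promoter window are shown to let the letters around the start be read beside the peak. Each is 180 bases of GRCm38.p6 (RefSeq), 5′ to 3′ on the gene's strand, from 150 bases before the annotated start to 30 bases from it, so that base 151 is the start. Capitals mark exact matches, on either strand, to any of 8 motifs. These are the TATA box letters TATAAA, the CCAAT box, the GC box core GGGCGG bound by SP1, the ETS-family letters CCGGAAG, the YY1 letters AAGATGG, the palindrome of NRF1, the palindrome of BANP and the CRE palindrome TGACGTCA. Hnrnpa1 is left out because its strongest peak does not overlap its promoter window. Srsf3 has the same fold as Srsf2, 4.49, and Srsf2 was taken by alphabetical order. The 300-base promoter of Srsf3 holds the TATA and CCAAT box letters and lacks the GC box core.
Snrnp70, chr7:45395713-45395892, minus strand: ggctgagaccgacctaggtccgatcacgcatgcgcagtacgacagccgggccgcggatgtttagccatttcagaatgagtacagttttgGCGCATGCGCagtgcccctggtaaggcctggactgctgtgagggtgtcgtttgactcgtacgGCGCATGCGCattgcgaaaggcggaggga
Srsf7, chr17:80207276-80207455, minus strand: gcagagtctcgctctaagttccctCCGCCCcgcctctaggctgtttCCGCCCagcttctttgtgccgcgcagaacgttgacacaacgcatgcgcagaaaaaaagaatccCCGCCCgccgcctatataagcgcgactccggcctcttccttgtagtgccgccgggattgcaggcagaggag
Hnrnpab, chr11:51606852-51607031, minus strand: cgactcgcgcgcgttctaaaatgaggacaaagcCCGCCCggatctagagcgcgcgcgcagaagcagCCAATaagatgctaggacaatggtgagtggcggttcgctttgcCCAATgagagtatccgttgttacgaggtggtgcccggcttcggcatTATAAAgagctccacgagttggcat
Hnrnpa2b1, chr6:51469816-51469995, minus strand: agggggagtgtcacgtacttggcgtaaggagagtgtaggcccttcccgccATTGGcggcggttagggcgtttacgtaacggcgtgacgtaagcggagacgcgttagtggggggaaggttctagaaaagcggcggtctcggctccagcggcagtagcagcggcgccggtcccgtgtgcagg
Srsf5, chr12:80945349-80945528, plus strand: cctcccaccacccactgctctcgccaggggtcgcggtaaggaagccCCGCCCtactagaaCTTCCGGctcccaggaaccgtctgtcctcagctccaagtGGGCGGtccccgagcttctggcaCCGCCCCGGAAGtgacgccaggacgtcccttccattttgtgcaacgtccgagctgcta
Srsf2, chr11:116853065-116853244, minus strand: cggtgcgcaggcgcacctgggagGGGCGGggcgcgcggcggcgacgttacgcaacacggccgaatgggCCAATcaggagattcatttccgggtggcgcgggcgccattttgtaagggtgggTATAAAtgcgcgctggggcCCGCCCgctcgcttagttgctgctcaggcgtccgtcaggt

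The 6 sequences share no single motif. Snrnp70 holds 2 copies of the NRF1 palindrome, the capitals in its sequence, with first bases at −61 and +2. No other promoter among the 76 members with a promoter sequence holds it (1.32%), and 1.33% of all 17491 protein-coding promoters of 300 bases do. Srsf7 and Srsf5 each hold 3 matches to GGGCGG. In Srsf5, 1 of these matches shares a base with a match to CCGGAAG. Srsf2 holds TATAAA at −29, together with CCAAT at −82. Over 300 bases, 71.1% of splicing gene promoters held GGGCGG and 28.9% held CCGGAAG, beside 46.3% and 11.9% of all protein-coding promoters. The other shares were 47.4% for CCAAT, 10.5% for TATAAA, 5.26% for AAGATGG and 2.63% each for the BANP palindrome and TGACGTCA, beside 39.2%, 13.3%, 6.35%, 0.726% and 2.33% of all promoters.

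The promoters of splicing genes with and without a boundary peak were set side by side, with no test. The split is by any boundary summit, not by a peak at the promoter. The genes without one include Hnrnph1, Hnrnpl, Hnrnpu and Srsf11, which have a summit at an annotated start, and the genes with one include Hnrnpf, whose boundary summit is at its 3′ end. Median GC content was 60.8% in the 40 with a peak and a promoter sequence and 58% in the 36 without, and the median number of CpG in 300 bases was 28 and 23. Over all protein-coding promoters the medians were 56.3% and 13. GGGCGG was present in 30 of the 40 (75%) and in 24 of the 36 (66.7%), and CCGGAAG in 11 of the 40 (27.5%) and 11 of the 36 (30.6%). Over all protein-coding genes with and without a boundary summit, the shares were 62.3% and 42.5% for GGGCGG, and 17.3% and 10.6% for CCGGAAG. The letters TATAAA were present in 6 of the 40 (15%) and 2 of the 36 (5.56%), and over all protein-coding genes in 9.35% of those with a summit and 14.3% of those without. For the ETS and TATA letters the splicing genes and all protein-coding genes thus differ in opposite directions, on few splicing genes.

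Among the U1 genes, Snrpa, whose product binds the second stem-loop of U1 RNA, had a boundary fold of 2.22, and its summit also lies within 1 kb of a boundary of BC024978. Snrpc, the third U1 protein, had no peak. Of the 8 genes of the Sm ring, the protein ring around the spliceosomal RNAs, 4 were occupied. These were Snrpg (3.13), Snrpd1 (2.59), Snrpe (2.22) and Snrpb (2.0). The share of the Sm ring, 50%, stands beside 18.8% of all protein-coding genes. Snrpd2, Snrpd3 and Snrpf had no peak. Snrpn, the imprinted member that is expressed in neurons, had none at its boundaries and 5 in its interior, described below.

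Of the 11 genes of the U2 particle, 4 were occupied (36.4%), beside 18.8% of all protein-coding genes. Without chromosomes 6 and 8 these shares were 30% and 15.4%. Sf3b3 on chromosome 8 had the highest fold of the group, 3.18, with a summit 106 bp downstream of its start. Sf3a2 (2.81) and Sf3b1 (2.63), which encodes the largest SF3b subunit, had summits 274 and 94 bp upstream of their starts. Snrpa1 had a fold of 1.86, near the low end of the list, whose lower quartile is 1.95. Sf3a1, Sf3a3, Sf3b2, Sf3b4, Sf3b5, Sf3b6 and Snrpb2 had no peak. The U2AF genes were occupied in 1 of 3 cases, at U2af2 (2.54), which encodes the subunit that reads the polypyrimidine tract. U2af1 and U2af1l4 had no peak. With so few genes, neither the U2 share nor the U2AF share (33.3%) can be told from the 18.8% of all protein-coding genes.

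The tri-snRNP and the minor spliceosome are small groups, with 1 of 8 and 0 of 3 genes occupied. The occupied gene, Snrnp40, had a fold of 2.13, and its summit lies beside Zcchc17 as well. Prpf8, whose product forms the core of the catalytic centre, had no peak, and neither had Prpf3, Prpf4, Prpf6, Prpf31 or Snrnp200, the gene of the helicase that unwinds U4 from U6. Snrnp27 had 2 interior peaks only. The minor spliceosome genes Snrnp25, Snrnp35 and Snrnp48 had no peak. These shares, 12.5% and 0%, stand beside 18.8% of all protein-coding genes, and with so few genes in each group neither can be told from that share. At 6 of the 10 role groups 50% or more of the genes were occupied, and at 3 when peaks were kept at a −log10 q no lower than 4. The other Prpf genes, which act at several steps, were occupied in 5 of 8 cases with folds of 1.95 to 2.63, among them Prpf38a (2.63), Prpf39 (2.41), Prpf4b (2.0) and Prpf38b (1.95). Prpf18, Prpf19 and Prpf40b had no peak.

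SR protein genes were occupied in 8 of 11 cases, the highest share of the 10 role groups at this window (72.7%), with a median fold of 3.74. After Srsf7 came Srsf5 (4.95), Srsf2 and Srsf3 (4.49 each), Srsf6 (3.0), Srsf10 (2.95), Srsf4 (2.18) and Srsf1 (2.09). None of the 11 lies on chromosomes 6 or 8. Srsf11 had only an interior peak, while Srsf9 and Srsf12 had no peak. The hnRNP genes were occupied in 14 of 21 cases (66.7%) with a median fold of 2.79. The SR and hnRNP shares stand beside 18.8% of all protein-coding genes. Hnrnpk had a fold of 4.08. The other 10 had folds from 1.86 at Hnrnpdl and Hnrnpf to 2.95 at Hnrnpc and Hnrnpul2, with Hnrnpa3 (2.9), Hnrnpm (2.68), Hnrnpr (2.63), Hnrnpa0 (2.54), Hnrnph3 (2.31) and Hnrnpd (1.91) between them. Hnrnph1, Hnrnpl and Hnrnpu had only interior peaks, and Hnrnpa1l2-ps2, Hnrnph2, Hnrnpll and Hnrnpul1 had no peak. Hnrnpa1l2-ps2 has a pseudogene symbol but is annotated as protein-coding, so it is counted among the 21. Of the 13 peaks with a fold of at least 4 at or in splicing genes, 6 were in SR genes, 5 in hnRNP genes and 2 in the rest, at Snrnp70 and in the interior of Lsm14a. The 13 comprised 9 boundary and 4 interior peaks. A boundary fold of at least 4 was found at 9 splicing genes, 18.8% of those occupied, and at 280 other protein-coding genes, 6.88% of those occupied.

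LSm genes were occupied in 9 of 13 cases (69.2%), beside 18.8% of all protein-coding genes. The LSm count differed by chromosome. The products of some of the 13, not of all, form rings on U6 RNA and on RNAs bound for decay. All 6 LSm genes on chromosomes 6 and 8 were occupied, with folds of 2.13 to 2.77, at Lsm5 (2.77), Lsm4 (2.5), Lsm1 (2.31), Lsm6 and Lsm8 (2.18 each) and Lsm3 (2.13). Of the 7 on other chromosomes, 3 were, at Lsm2 (2.77), Lsm14b (2.0) and Lsm14a (1.86). Lsm7, Lsm10 and Lsm11 had no peak, and Lsm12 had 1 in its interior only. Chromosomes 6 and 8 held 57.5 peaks per Mb with a median fold of 2.0, against 17.4 per Mb and 2.18 on the others. On these 2 chromosomes 10 of 11 splicing genes (90.9%) were occupied, beside 50.3% of all protein-coding genes, and summits lay in the windows 5 to 7 kb outside 27.3% of the splicing genes and 30.7% of all genes there. On the other chromosomes 38 of 78 splicing genes (48.7%) were occupied, beside 15.4% of all protein-coding genes. The part of peak density in the LSm count was not tested.

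Peaks at the boundaries of splicing genes lay at the 5′ end. Strand was known for 76 of the 89 genes. Of these, 39 (51.3%) had a summit within 1 kb of the 5′ boundary, beside 17.4% of all protein-coding genes, and 3 (3.95%) had one at the 3′ boundary, beside 4.39%. The 3 were Hnrnpf, Lsm5 and Sf3b3, all on chromosomes 6 and 8, and their 3′ summits had folds of 1.86, 1.91 and 2.0. The outer boundary of a gene is not always where its annotated transcripts begin, so distances were also taken from the nearest annotated start. With that measure 44 of 76 splicing genes (57.9%) had a summit within 1 kb of a start, beside 18.6% of all protein-coding genes. SR genes reached 9 of 11 and hnRNP genes 16 of the 19 with a known start. The tri-snRNP genes had 0 of 7, too few genes to be told from the 18.6%.

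The strongest of these summits lay a median of 70 bp downstream of the start, with quartiles at −62 and 127.5 bp. In the other 3216 protein-coding genes with such a peak the median was 74 bp, with quartiles at −60.25 and 161 bp. It was downstream of the start at 32 of the 44 splicing genes (72.7%) and at 69.5% of the others. The closest on the downstream side were Srsf11 at 12 bp, Srsf2 at 23 bp, Srsf3 at 44 bp, Hnrnpa2b1 at 47 bp, and Srsf7 at 50 bp. The farthest upstream were Hnrnpa1 at −431 bp, Hnrnpk at −334 bp and Lsm3 at −320 bp. A boundary of another annotated gene lay within 1 kb of the strongest boundary summit at 23 of the 48 occupied genes, and at 19 that gene was protein-coding, so these peaks cannot be assigned to a single gene. Hnrnpa2b1 and Cbx3 are such a pair. They share the widest of these peaks, 2560 bp, over a region known as a ubiquitous chromatin opening element. Hnrnpa1 and Cbx5, Hnrnpk and Rmi1, and Srsf2 and Mfsd11 are others. Among 47 splicing genes with no other protein-coding boundary within 1 kb of theirs, 28 (59.6%) were occupied, beside 16.1% of all such genes.

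**Figure D2:**
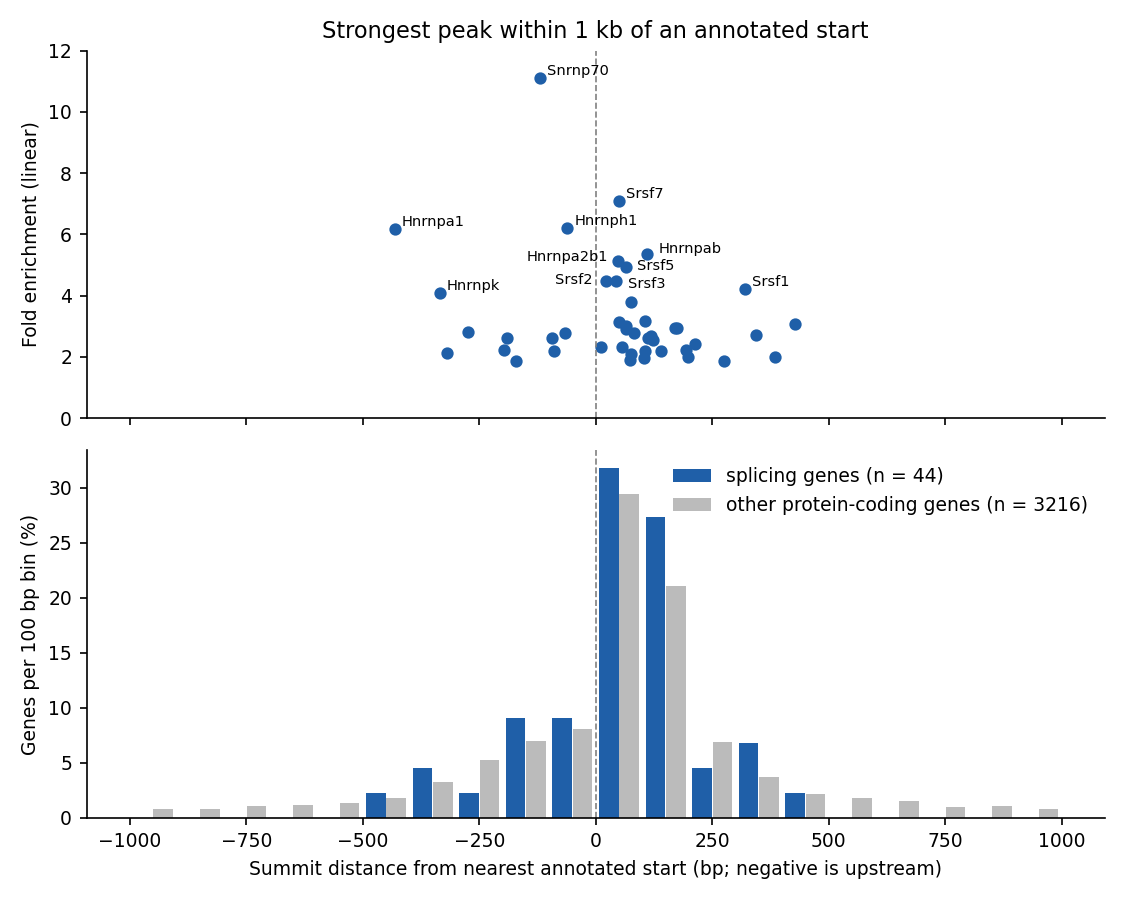
Upper panel, fold enrichment (linear) of the strongest peak within 1 kb of an annotated start against the summit's distance from that start for the 44 splicing genes that have one; lower panel, the share of genes per 100 bp bin for these and for 3216 other protein-coding genes. More than 50% of summits lie between the start and 200 bp downstream in both sets, and Snrnp70 lies 119 bp upstream.

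Interior peaks were found in 21 of 89 splicing genes (23.6%), beside 20.0% of all protein-coding genes, so the share was near the background. With a 2 kb limit the shares were 13.5% and 18.2%, and with intervals in place of summits 21.3% and 19.7%. Splicing genes had a median length of 12212 bp, and the other protein-coding genes 17186 bp. Several of these peaks lay at an annotated start inside the outer boundary. Hnrnph1 had 1 peak of fold 6.22, 2360 bp inside its 5′ boundary and 61 bp upstream of one of its 5 annotated starts. Srsf1, whose boundary peak had a fold of 2.09, had a second peak of fold 4.22 that lay 320 bp downstream of its annotated start. Hnrnpf had peaks of fold 3.81 and 3.36 at +75 and −244 bp from internal starts. Srsf11 (2.31), Hnrnpl (3.09), Hnrnpu (2.09) and Hnrnpdl (2.72) also had interior summits within 1 kb of an annotated start.

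Counting only summits over 1 kb from every annotated start, 10 of the 76 splicing genes with known starts (13.2%) had an interior peak, beside 18.4% of all protein-coding genes. Peaks kept at a −log10 q no lower than 4 gave an interior share of 13.5%, beside 10.9%. The 2 strongest such peaks were in Srsf4 and Lsm14a. Srsf4 had a peak of fold 7.35 on chromosome 4 (131896057 to 131896673), 22427 bp downstream of the nearest start and 5238 bp from the gene's 3′ end, above the 2.18 of its own start. Lsm14a, which encodes a protein of cytoplasmic RNA granules, had a peak of fold 5.9 on chromosome 7 (34347211 to 34347328), 42444 bp downstream of its start. That peak was 118 bp wide, and the other 12 splicing gene peaks of fold 4 or more were 364 to 2560 bp wide. The remaining summits over 1 kb from every annotated start had folds of 1.82 to 2.54. Srsf10 had 2, of 2.31 and 2.27. Snrpn had 5, of 1.82 to 2.54, all inside Snhg14, a long noncoding host of small nucleolar RNAs, over a gene of 467683 bp. Sf3b3 on chromosome 8 had 5, of 1.91 to 2.13. Exons and introns were not given in the annotation used, so the interior peaks could not be placed in either.

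**Figure D3:**
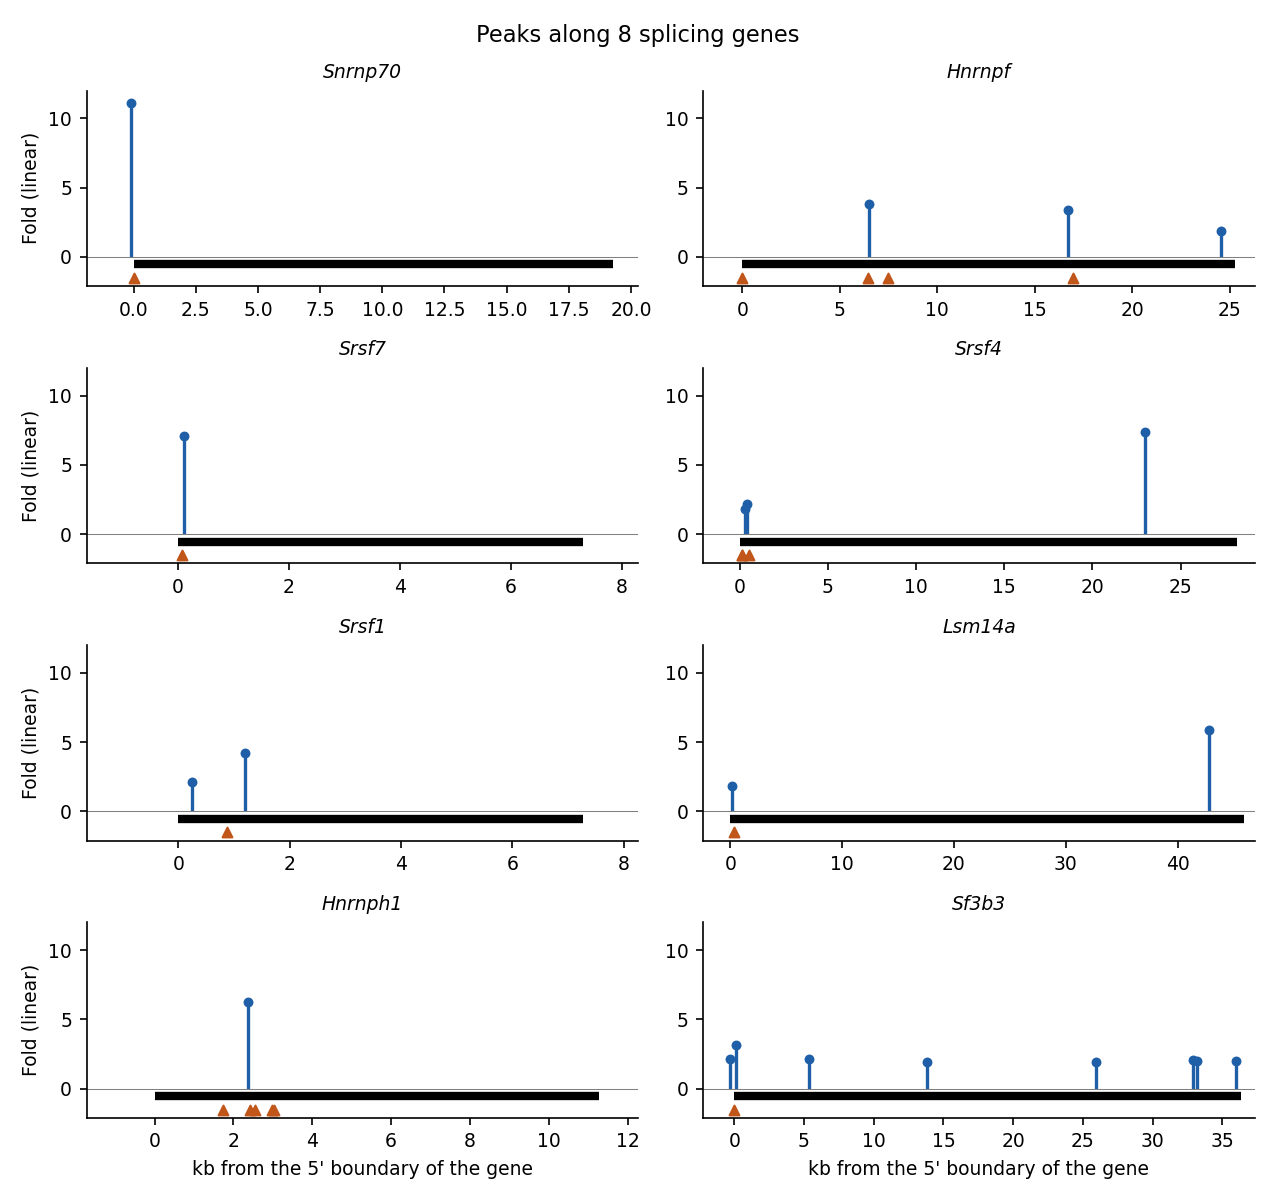
Peaks along 8 splicing genes, drawn as stems at their summits (vertical axis, linear fold enrichment) by distance from the 5′ boundary in kb; the black bar is the gene and triangles are annotated starts. Snrnp70 and Srsf7 have 1 peak at the start, Hnrnph1 and Hnrnpf have peaks at internal starts, Srsf4 and Lsm14a have their strongest peak far from any start, and Sf3b3 has 8 peaks, with 3.18 near the start and 1.91 to 2.13 at the others.

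Splicing genes outside these symbol families were also read. A list of 112 genes of the exon junction complex, the Prp19-associated complex, the spliceosomal helicases, snRNP assembly, SR kinases and other RNA-binding regulators had 62 occupied (55.4%), with a median fold of 2.38 and 50 without a boundary peak. Summits in the windows 5 to 7 kb outside were found at 16 of the 112 (14.3%), beside 8.59% of all protein-coding genes. Among those with the highest folds were Gemin6, through the peak it shares with Srsf7 (7.08), the DEAD-box helicase gene Ddx5 (4.99), Rbm25 (4.63), the poly(C)-binding protein gene Pcbp1 and Raly (4.4 each), Luc7l2 (3.99), Tra2b (3.86), Matr3 (3.68) and Pcbp2 (3.59). At a −log10 q no lower than 4 the share was 33%, beside 9.81% of all protein-coding genes.

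Set beside other large machines, the 89 splicing genes (53.9%) lay between cytosolic ribosomal protein genes, of which 71 of 87 were occupied (81.6%, median fold 2.95), and proteasome genes, of which 10 of 39 were (25.6%, median fold 2.09). Without chromosomes 6 and 8 the shares were 48.7%, 81% and 21.6%. At a −log10 q no lower than 4 they were 36%, 73.6% and 7.69%. Over all protein-coding genes the share was 18.8%, with 15.4% without chromosomes 6 and 8 and 9.81% at that q limit. The proteasome share at the q limit was thus below that of all protein-coding genes. Symbols with a pseudogene suffix were left out of the ribosomal protein set, while the splicing set kept Hnrnpa1l2-ps2. Median gene length was 12212 bp for splicing, 3175 bp for ribosomal protein and 12293 bp for proteasome genes. The differences in shares were not tested, nor was the part of gene length in them. How strongly each gene is transcribed was not measured in this list, and its part in the shares was not tested.

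**Figure D4:**
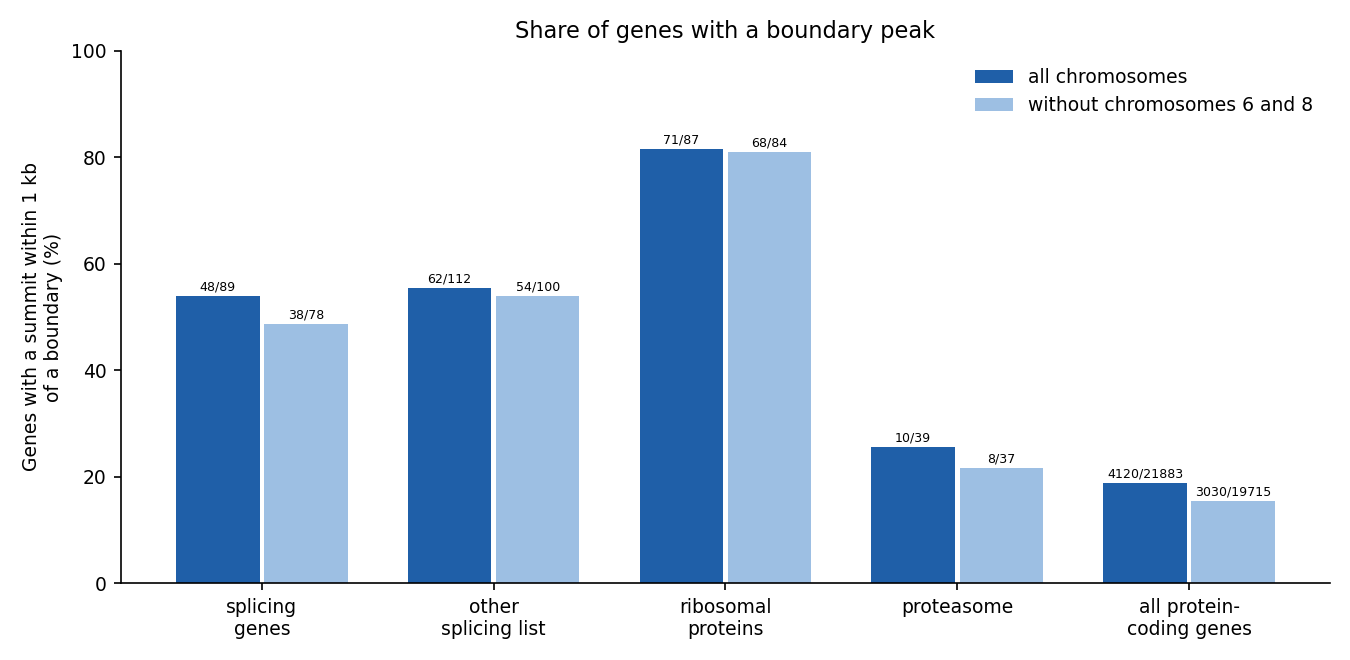
Share of genes with a summit within 1 kb of a boundary (vertical axis, %) in the 89 splicing genes, the other splicing list, ribosomal protein genes, proteasome genes and all protein-coding genes, with and without chromosomes 6 and 8; numbers over the bars are genes occupied over genes in the set. The splicing genes stand at 53.9% and 48.7%, and all protein-coding genes at 18.8% and 15.4%.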

How the data were processed

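The members and gene lists were chosen with earlier results of these data known. The submitters' processing notes name the build mm10 and, with no order or role, MACS2, SAMtools 1.4, Bowtie2 2.2.9 and Trim Galore 0.4.2. Settings of the peak call, and how reads mapping to several places were treated, were not stated there. The authors deposited 1 peak list without a header, with a linear fold enrichment ratio, the −log10 of the q-value and a whole-number score for each peak. The score was not used. No column belongs to a single library, so the read depth is unknown, no test over samples could be made and no replicate error exists. All comparisons are descriptions.

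Summits were set against RefSeq gene boundaries of GRCm38.p6, which mm10 names, for 21883 protein-coding genes. Strand and transcription starts came from the RefSeq promoter table, which held 76 of the 89 genes. The orientation of its sequences was checked on 1665 overlapping windows of opposite strands, of which 1665 were reverse complements. Motifs were searched as exact letters on both strands of 300 bases. Every member with a boundary peak could be named, members without one were named by role, of the other splicing genes the 10 with the highest boundary fold could be named, and promoters were taken for up to 6 members with the highest boundary fold whose window the peak overlapped. Some genes that these rules would name are not reported here. Scoring was tested on simulated data. Alternatives were windows of 500 bp and 2 kb, fold at or above the median, a −log10 q no lower than 4, interval overlap, isolated genes, 5′ boundaries, regions outside 1 Mb windows with 30 or more peaks, and the list without chromosomes 6 and 8. Scoring against any annotated start, and the removal of chromosomes 6 and 8 for results other than the boundary share, were added after the data were seen. The software was Python 3.11.15 with scipy 1.17.1, pandas 2.3.3, numpy 2.4.6 and, for figures, matplotlib 3.10.9.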

Additional observations from a re-analysis of the deposited data

How the results depend on the processing

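The boundary share of the splicing genes, 53.9%, ranged from 36% to 59.6% over the 10 alternatives, beside 9.81% to 21.8% of all protein-coding genes under the alternatives that score either boundary. The only one outside the 95% Wilson interval of the main share was a −log10 q no lower than 4 (36%). Under that limit 3 of the 10 role groups, in place of 6, had 50% or more of their genes occupied. The interior share, 23.6%, was 13.5% with a 2 kb window, 13.5% at that q limit and 13.2% over 1 kb from every start. The other splicing list, 55.4%, was 44.6% at or above the median fold and 33% at the q limit, and the proteasome share, 25.6%, was 12.8% and 7.69%. All protein-coding genes had 12.4% and 9.81% under the same 2 settings. These 2 settings keep fewer peaks by construction. Among single role groups, the q limit gave 30.8% for LSm genes (69.2% without it), 25% for the other Prpf genes (62.5%) and 0% for the tri-snRNP (12.5%), and a 2 kb window gave 100% for the 3 U1 genes (66.7%). No other alternative that was run moved a share out of its interval, or a median fold or the count of role groups by over 1.5 times. For groups of few genes the interval is wide, so staying inside it says little. The LSm share stayed inside at 42.9% without chromosomes 6 and 8. No paired analysis was possible because the list carries no value for a single library, and for the same reason no replicate could be left out. The unknown depth limits what can be said of genes without a peak.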

Other observations

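The RNA genes of the spliceosome were also read. They were looked at after the other values were seen, and RefSeq names 15 genes with symbols beginning with Rnu. A summit lay within 1 kb of 14 of them (93.3%), and within 1 kb of 45 of the 989 other annotated snRNA genes (4.55%). The fold was 3.77 at Rnu2-10 (U2), 3.45 at Rnu12 (U12) and 3.36 at Rnu11 (U11). The U1 genes had 3.4 at Rnu1b6, 3.13 at Rnu1a1, 2.31 at Rnu1b2 and 2.04 at Rnu1b1. The 5 genes of U3, which acts in ribosomal RNA processing and not in splicing, had folds of 3.45 to 3.68. Rnu7, which serves histone RNA processing, had 2.9 and Rnu5g (U5) 2.13. Rnu6 (U6) was the one without a summit. RNA polymerase III transcribes Rnu6 and polymerase II the others, and whether this bears on the 1 missing summit was not tested. Nor was the part of reads that map to several places, whose treatment is not stated. Other annotated genes lie within 1 kb of several, among them Poldip3 by Rnu12, Gtf3c6 by Rnu3a, Grcc10 by Rnu7 and Tex14 by Rnu1a1 and the Rnu3b genes, so their peaks cannot be assigned to a single gene. The U1 and U3 genes have near-identical copies, so reads could be shared among them. In the windows 5 to 7 kb outside, 4 of the 15 had a summit, beside 58 of the 989 other snRNA genes. Of the 5 annotated pseudogenes that carry the symbols of splicing genes, 1 had a boundary summit (Snrp1c-ps1, fold 1.86).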
